A study of Mus musculus with 19 samples.

Results

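Type I interferon-stimulated genes were followed in mouse bone marrow with and without breast cancer bone metastasis, in sorted macrophages and in sorted Ly6C+ inflammatory monocytes. The genes came from a list of 37 symbols. Its rule is by name and uses no measured value, but the names were chosen with earlier results of these data known. The deposited table held values for 36 of them among 20998 genes, and Bst2 was not analysed here. RNA of each sort was hybridised to Affymetrix MoGene 2.0 ST arrays, 5 for healthy and 5 for metastatic macrophages, and 5 for healthy and 4 for metastatic monocytes. Metastases followed injection of 100000 MetBo2 cells, a clone of the Met-1 line selected for homing to bone, itself from a mouse mammary tumour driven by the polyoma middle T oncogene, into the heart of 4-week-old female mice that received no treatment. The strain, the age of the healthy mice and any injection given to them are not stated in the sources used here, and MetBo2 is a single clone. Whether each array stands for its own mouse is not stated, so p-values measure only the spread between these samples, which may be technical.

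Type I interferons bind the receptor formed by IFNAR1 and IFNAR2, and the kinases JAK1 and TYK2 then activate transcription factors that include STAT2. A complex that holds STAT2 and IRF9 binds a short repeated GAAA element in front of interferon-stimulated genes. The products of those genes cut or bind foreign RNA, sense nucleic acid, tag proteins with ISG15, or feed back on the pathway. In bone marrow both macrophages and monocytes respond to interferon, and the same genes also answer in part to interferon gamma, whose signal induces IRF1.

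The element is shown here as a description of the genes. The list did not use sequence, but it names interferon-stimulated genes, in front of which this element is found. A high share is therefore no independent support for the list. The motif searched was GAAA, any 2 bases and GAAA again, on both strands in the 250 bases before the transcription start. It was present in 8 of the 26 listed genes that had both a value and a promoter entry in RefSeq (GRCm38.p6), which is 30.8%. Among all 27025 genes with a promoter entry 936 held it, or 3.46%. A second motif searched in the same bases, TTC, any 3 bases and GAA, was present in 6 of the 26 (23.1%; 8.13% of all genes). Listed genes without a promoter entry were Oas2, Mx1, Mx2, Usp18, Parp9, Parp14, Dhx58, Zbp1, Ifi204 and Rtp4. The stretches below, from the 8 genes with the GAAA repeat, run 5′ to 3′ on the strand of the gene, with the motif or its reverse complement (TTTC, any 2 bases, TTTC) in capitals and adjoining or overlapping matches joined.
Ifit1 (chr19:34640770-34640828, plus strand): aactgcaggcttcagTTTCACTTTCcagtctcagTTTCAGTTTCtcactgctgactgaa
Ifit3 (chr19:34583358-34583431, plus strand): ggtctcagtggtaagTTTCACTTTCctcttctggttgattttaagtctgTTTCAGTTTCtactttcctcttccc
Oas1a (chr5:120907526-120907560, minus strand): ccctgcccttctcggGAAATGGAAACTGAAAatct
Oas3 (chr5:120777710-120777749, minus strand): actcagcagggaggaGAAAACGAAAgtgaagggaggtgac
Rsad2 (chr12:26456548-26456587, minus strand): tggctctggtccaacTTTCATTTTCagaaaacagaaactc
Isg15 (chr4:156200860-156200911, minus strand): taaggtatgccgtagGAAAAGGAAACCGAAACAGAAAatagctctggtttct
Stat2 (chr10:128270261-128270300, plus strand): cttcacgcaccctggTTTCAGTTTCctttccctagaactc
Trim30a (chr7:104465205-104465244, minus strand): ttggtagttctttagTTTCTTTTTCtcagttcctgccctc
Isg15, the ubiquitin-like modifier, held 3 overlapping matches, and Oas1a, Ifit1 and Ifit3 held 2 each. Between healthy and metastatic macrophages the log2 differences of these 8 genes ran from -0.06 for Stat2 to 0.65 for Ifit1, with Rsad2 at 0.00 and Oas3 at 0.56. None of the genes that passed the test below in macrophages is among these 8. Ifi44 and Oasl2 held no GAAA repeat in the stretch searched, and Oas2 had no promoter entry.

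The macrophage arrays also carried markers of other marrow cells. Array medians lay between 4.45 and 4.55 on the log2 scale of the deposited values. Relative to monocytes, healthy macrophages were higher in the island and iron-recycling macrophage genes Vcam1 (log2 difference 2.05) and Spic (1.37) but lower in the macrophage genes Adgre1 (-0.63) and Cd68 (-0.69). Mean log2 levels of 8 neutrophil markers were 9.95 to 10.5 on the macrophage arrays and 7.71 to 8.59 on the monocyte arrays. Those of 7 T or NK cell markers were 5.37 to 6.66 and 3.77 to 4.19, and those of 8 epithelial tumour markers were 3.64 to 3.95 over all arrays. In such bulk samples fewer cells of a type and less RNA per cell cannot be told apart.

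In macrophages, most interferon-stimulated genes measured higher in metastasis, and 3 of the 36 passed the test. These were Ifi44, an interferon-induced protein of the cytoplasm, and Oas2 and Oasl2, of the 2′-5′ oligoadenylate synthetase family that senses double-stranded RNA. A gene passed when its adjusted p in limma, fitted over all 19 arrays and all 20998 genes, was below 0.05. All 3 were higher in metastasis, which is 8.33% of the list, while 1.23% of all genes passed in this comparison, 0.638% as higher and 0.595% as lower. Leaving out healthy replicate 5 raised the share of all genes to 2.6% (546 genes), and Ifi44 was then the only listed gene to pass; without any 1 of the other arrays the share was 0.729% to 1.55%. The log2 difference was above 0 for 31 of the 36 (86.1%; 50.6% of all genes), and its median was 0.17 over the list and 0.0021 over all genes. An unadjusted p below 0.05 with a higher level in metastasis was reached by 13 (36.1%; 7.22% of all genes), and by 0 with a lower level (6.38% of all genes). Most listed genes shifted together on single arrays, as given below, so in this and the later comparisons they are not independent readings. The 2 groups of arrays did not overlap for Ifi44 and Oasl2 (5.56% of the list; 0.976% of all genes were higher and 0.952% lower without overlap).

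**Figure D1:**
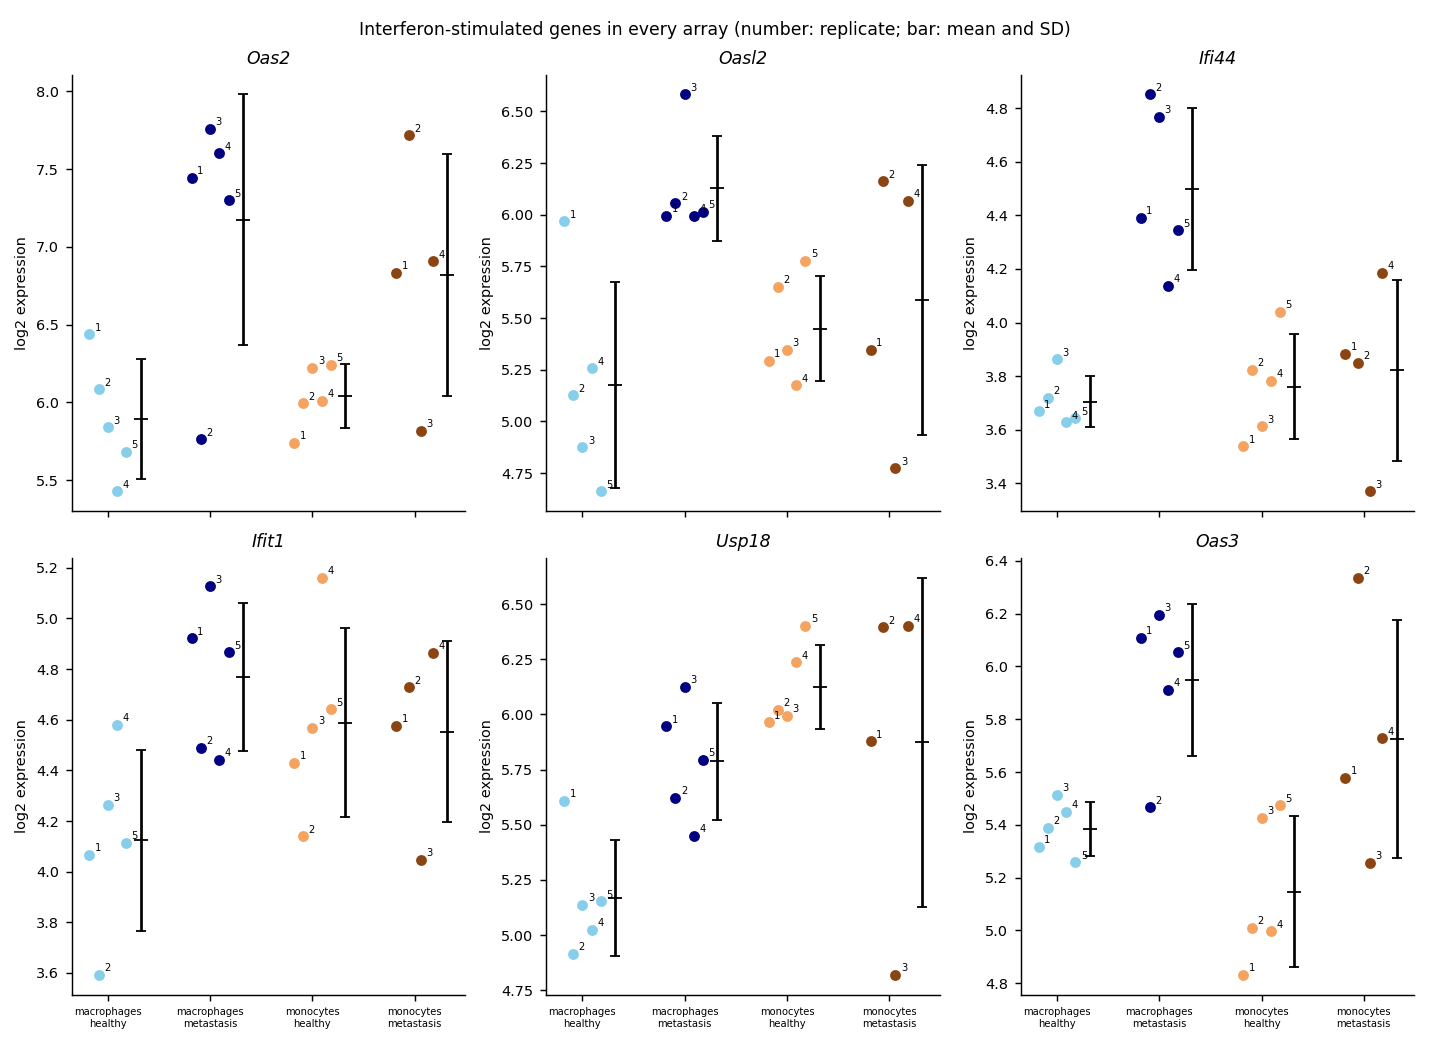
Log2 expression of Oas2, Oasl2, Ifi44, Ifit1, Usp18 and Oas3 on each of the 19 arrays, by group. Points are arrays, numbers are replicates and bars give mean and SD. Metastasis replicate 2 among macrophages sits at 5.76 for Oas2, among the healthy arrays, and metastasis replicate 3 among monocytes is the lowest of its group in every panel.

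Ifi44 measured 3.67, 3.72, 3.86, 3.63 and 3.64 on the healthy macrophage arrays and 4.39, 4.85, 4.77, 4.14 and 4.34 on the metastasis arrays. Every metastasis array lay above every healthy one. The level was 1.74-fold higher in metastasis (log2 difference 0.80 ± 0.14, SE; limma adjusted p = 0.00492), and leaving out any of the 10 macrophage arrays kept the call (adjusted p 0.00317 to 0.0185). The gene is dim: no group mean reached 4.51, the median of all gene means, so that it was not tested where a filter on dim genes asked for this.

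Oas2 measured 6.44, 6.08, 5.84, 5.43 and 5.68 in healthy macrophages and 7.45, 5.76, 7.76, 7.60 and 7.30 in metastasis. Replicate 2 fell inside the healthy range, and the other metastasis arrays lay above all healthy ones. Its difference was 1.28 ± 0.32 (SE), or 2.43-fold, with a limma adjusted p of 0.0473. Without metastasis replicate 2 the difference was 1.63 and the adjusted p 0.00127, whereas leaving out any of 8 other arrays moved the adjusted p above the threshold (up to 0.116). That replicate also had the highest levels of the 7 plasmacytoid dendritic cell markers among all arrays, at a mean of 6.29, and of plasma cell markers within its group, at 6.68, while 8 of its 10 macrophage markers lay below the group mean, at -0.32 on average. Their part in its Oas2 value was not tested.

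Oasl2 measured 5.97, 5.13, 4.87, 5.26 and 4.66 in healthy macrophages and 6.00, 6.06, 6.58, 6.00 and 6.01 in metastasis. The groups did not overlap, but healthy replicate 1 came within 0.1 of the lowest metastasis arrays. The difference was 0.95 ± 0.24 (SE), or 1.93-fold, with a limma adjusted p of 0.0477, and it passed in 1 of the 10 fits that left out an array, the fit without healthy replicate 1 (0.0112).

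Of the 12 genes whose products act on RNA or nucleotides, 2 passed in macrophages and their median log2 difference was 0.29. Oas3, another synthetase, measured 5.32, 5.39, 5.51, 5.45 and 5.26 in healthy macrophages and 6.11, 5.47, 6.19, 5.91 and 6.05 in metastasis. Metastasis replicate 2, again, lay within the healthy range while the other 4 lay above it, and Oas3 did not pass (0.56 ± 0.17, SE; limma adjusted p = 0.106) unless that array was left out. Ifit1, which binds RNA with foreign 5′ ends, measured 4.07, 3.59, 4.27, 4.58 and 4.11 in healthy macrophages and 4.92, 4.49, 5.13, 4.44 and 4.87 in metastasis. Only healthy replicate 4 overlapped the metastasis arrays (0.65 ± 0.19, SE; limma adjusted p = 0.106). Ifit2, of the same family, measured 5.85, 5.94, 6.25, 6.00 and 6.38 in healthy macrophages and 6.47, 6.49, 6.71, 6.18 and 6.25 in metastasis, with overlapping groups and a difference of 0.34 ± 0.12. The differences of Oas1a, Isg20, an RNA exonuclease, and Oasl1 were 0.36, 0.25 and 0.07. Samhd1, which degrades nucleotides, the radical enzyme gene Rsad2 and Ifit3 lay at 0.00, 0.00 and -0.03. Cmpk2, a mitochondrial nucleotide kinase gene next to Rsad2 in the genome, had the lowest difference of the list at -0.19 ± 0.18 (SE), with 6.81, 6.72, 7.00, 7.10 and 6.61 in healthy macrophages and 6.82, 6.55, 7.22, 6.20 and 6.49 in metastasis.

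Genes of ISG15 conjugation and ADP-ribosylation were split by size. Usp18, which removes ISG15 and restrains the receptor, measured 5.61, 4.92, 5.14, 5.03 and 5.15 in healthy macrophages and 5.95, 5.62, 6.13, 5.45 and 5.80 in metastasis. Only healthy replicate 1 reached into the metastasis range (0.62 ± 0.22, SE; limma adjusted p = 0.183). Isg15 measured 5.30, 4.76, 4.10, 5.23 and 4.31 in healthy macrophages and 5.52, 4.88, 5.87, 5.19 and 4.88 in metastasis. The healthy arrays spread over more than 1 log2 unit and the groups overlapped (0.53 ± 0.25, SE; adjusted p = 0.348). The ligase gene Herc6, the paired ADP-ribosylation genes Parp9 and Dtx3l, and Parp14 differed by 0.11, 0.06, 0.05 and 0.03. The GTPases Mx1 and Mx2 differed by 0.16 and 0.27.

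All 6 sensor genes measured higher in metastasis macrophages, with none past the test and a median of 0.24. Eif2ak2, the RNA-dependent kinase that halts translation, measured 5.54, 5.47, 5.74, 5.88 and 5.63 in healthy macrophages and 5.97, 5.82, 6.29, 5.90 and 5.97 in metastasis. Metastasis replicate 2 alone lay below the highest healthy array (0.34 ± 0.12, SE; limma adjusted p = 0.183). Ifih1, which encodes the long-RNA sensor MDA5, measured 7.04, 6.69, 6.93, 6.75 and 6.62 in healthy macrophages and 7.12, 6.92, 7.64, 7.02 and 7.03 in metastasis, and the groups overlapped (0.34 ± 0.13). Ifi204, a DNA sensor gene, Dhx58, Zbp1 and Ddx58 differed by 0.29, 0.19, 0.14 and 0.02.

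The pathway's transcription factors differed little between healthy and metastatic macrophages. Irf7, which amplifies interferon production, measured 7.90, 7.54, 7.75, 7.48 and 7.13 in healthy macrophages and 7.75, 7.41, 7.89, 7.82 and 7.52 in metastasis (0.12 ± 0.17, SE). Stat2 measured 7.43, 6.99, 7.05, 7.09 and 7.26 against 7.23, 6.86, 7.32, 6.94 and 7.15 (-0.06 ± 0.11), and Irf9 measured 7.51, 7.31, 7.55, 7.00 and 6.51 against 7.05, 7.13, 7.38, 7.12 and 7.33 (0.03 ± 0.15). Irf1, which also serves interferon gamma, measured 6.93, 7.26, 6.83, 6.70 and 6.68 against 7.12, 7.14, 7.06, 6.96 and 6.97 (0.17 ± 0.12). The groups overlapped for each of the 4. Trim30a, a regulator of Toll-like receptor signalling, measured 5.95, 5.33, 5.56, 5.01 and 5.29 in healthy macrophages and 5.51, 6.01, 5.68, 5.69 and 5.97 in metastasis (0.34 ± 0.16). Among the remaining genes the receptor transporter gene Rtp4 differed by 0.60, Xaf1 by 0.13, the nuclear body gene Sp100 by 0.01 and Ifi35 by 0.00.

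Marker genes also differed between the macrophage groups, those of macrophages among them. Mrc1, the mannose receptor gene, was lower in metastasis without overlap (-1.34 ± 0.20, SE; limma adjusted p = 0.00104), and Spic was lower (-0.67 ± 0.15; 0.0289). Vcam1 gave -0.60 and the complement genes C1qa, C1qb and C1qc gave 0.61, 0.49 and 0.42, none past the test. The mean of the 10 macrophage markers was 5.88 to 6.54 on healthy arrays and 5.63 to 6.29 on metastasis arrays. The mean of 7 Ly6C+ monocyte markers was 9.42 to 9.80 on healthy arrays and 9.91 to 10.1 on metastasis arrays, and that of 8 neutrophil markers was 9.95 to 10.4 and 10.4 to 10.5. For 7 plasmacytoid dendritic cell markers, a cell type known for interferon production, it was 5.15 to 5.66 and 4.87 to 6.29, with Siglech at a mean of 5.15 and 6.30 and not past the test. For 7 plasma cell markers it was 6.92 to 7.15 and 5.74 to 6.68. The part of these markers and cells in the differences above was not tested.

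**Figure D2:**
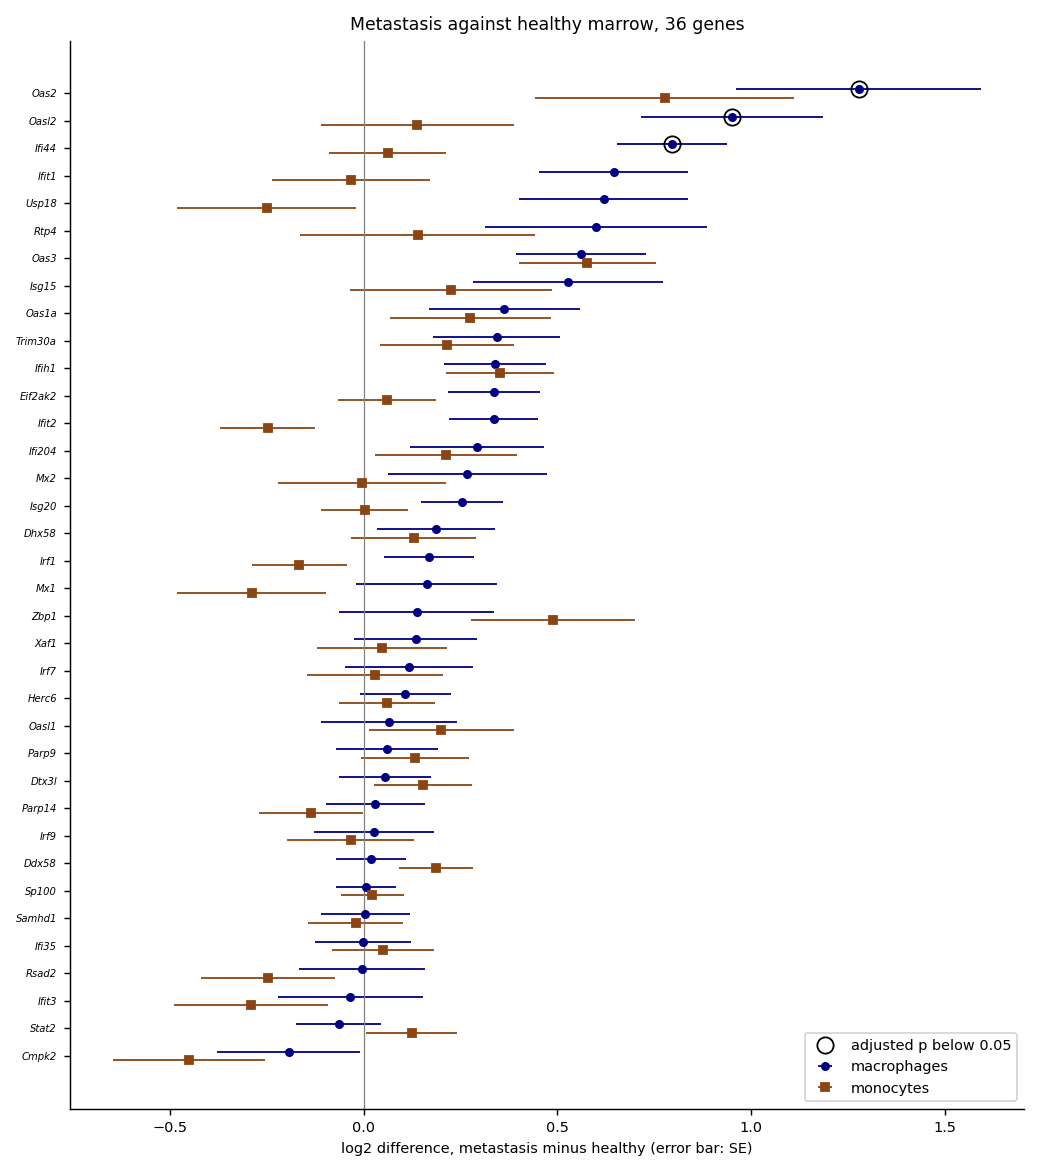
Log2 difference between metastatic and healthy marrow for each of the 36 genes, in macrophages (circles) and monocytes (squares), with SE bars and rings around values with an adjusted p below 0.05. Ringed are Oas2, Oasl2 and Ifi44 in macrophages, and no monocyte value is ringed.

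In monocytes 0 of the 36 genes passed, where limma called 0.514% of all genes, 0.395% higher and 0.119% lower. At that share a list this short would hold few or no calls in any case, so the count says nothing particular about it. The log2 difference was above 0 for 24 (46.7% of all genes), with a median of 0.06 over the list and -0.01 over all genes. At an unadjusted p below 0.05, 4 were higher (Oas3, Ifih1, Oas2 and Zbp1; 3.78% of all genes) and 1 was lower (Cmpk2; 3.8% of all genes). Of the list 0 were without overlap between the groups (2.96% of all genes were higher and 2.45% lower without overlap). Oas3 came closest, with 4.83, 5.01, 5.43, 5.00 and 5.47 on healthy arrays and 5.58, 6.33, 5.26 and 5.73 on metastasis arrays. Metastasis replicate 3 lay within the healthy range and the other 3 lay above it (0.58 ± 0.18, SE; limma adjusted p = 0.223).

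The same array set the range of the other genes. Oas2 measured 5.74, 6.00, 6.22, 6.01 and 6.24 in healthy monocytes and 6.83, 7.72, 5.82 and 6.91 in metastasis (0.78 ± 0.34, SE; limma adjusted p = 0.559). Zbp1, a sensor of Z-form nucleic acid linked to cell death, measured 7.66, 7.55, 7.65, 7.78 and 7.84 in healthy monocytes and 8.24, 8.37, 7.67 and 8.45 in metastasis (0.49 ± 0.21). Ifih1 measured 6.71, 6.57, 6.56, 6.69 and 6.79 in healthy monocytes and 7.17, 7.11, 6.59 and 7.20 in metastasis (0.35 ± 0.14). In each of these, replicate 3 lay among the healthy arrays and the other metastasis arrays above them. Cmpk2 measured 7.26, 7.25, 7.42, 7.24 and 7.54 in healthy monocytes and 7.30, 6.82, 6.17 and 7.27 in metastasis (-0.45 ± 0.20; limma adjusted p = 0.567), so that the lowest values were those of replicates 3 and 2.

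Of the genes that had passed or had the next smallest p in macrophages, Oas2 and Oas3 measured higher in metastasis monocytes too, as given above, and the following lay nearer 0 or below it. Ifi44 measured 3.54, 3.82, 3.61, 3.78 and 4.04 in healthy monocytes and 3.88, 3.85, 3.37 and 4.19 in metastasis (0.06 ± 0.15, SE). Oasl2 measured 5.29, 5.65, 5.35, 5.17 and 5.78 against 5.35, 6.16, 4.77 and 6.07 (0.14 ± 0.25), and Ifit1 measured 4.43, 4.14, 4.57, 5.16 and 4.64 against 4.57, 4.73, 4.05 and 4.86 (-0.03 ± 0.20). All 3 had overlapping groups. Usp18 measured 5.96, 6.02, 5.99, 6.24 and 6.40 in healthy monocytes and 5.88, 6.39, 4.82 and 6.40 in metastasis (-0.25 ± 0.23), where replicate 3 stood more than 1 log2 unit below the rest. Isg15, Irf7, Stat2, Irf9 and Irf1 differed by 0.23, 0.03, 0.12, -0.03 and -0.17.

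The difference between the metastasis effects in macrophages and in monocytes was tested as an interaction, and 0 of the 36 genes passed, where 0.0619% of all genes did. Here too a list this short would hold few or no calls in any case. It was above 0 for 26 of the 36 (52.7% of all genes), with a median of 0.11 over the list and 0.01 over all genes. At an unadjusted p below 0.05, 5 were higher in macrophages (13.9% of the list; 4.02% of all genes) and 0 were lower (3.85% of all genes). Those higher were Usp18 (0.87 ± 0.32, SE), Oasl2 (0.81 ± 0.34), Ifi44 (0.73 ± 0.21; limma adjusted p = 0.273), Ifit1 (0.68 ± 0.28) and Ifit2 (0.58 ± 0.17; adjusted p = 0.284). Effects in the 2 cell types were therefore not shown to differ for any listed gene.

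**Figure D3:**
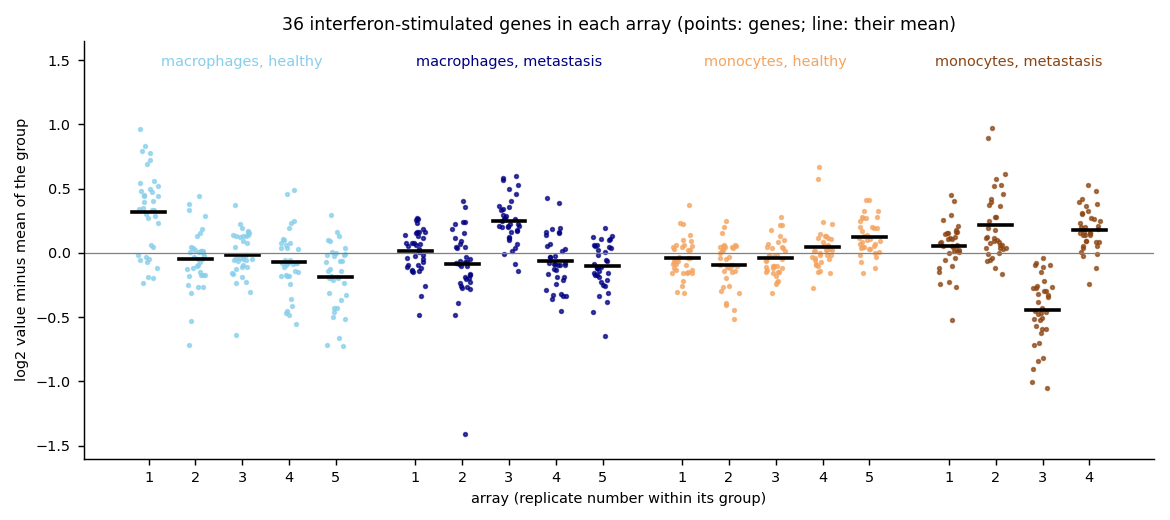
Log2 value of each of the 36 genes on each of the 19 arrays minus the mean of its group; points are genes and the line is their mean. Metastasis monocyte replicate 3 has all 36 points below 0, and healthy macrophage replicate 1 and metastasis macrophage replicate 3 lie mostly above 0.

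On single arrays most or all of the genes lay on the same side of their group mean. On metastasis monocyte replicate 3 all 36 genes lay below their group mean (51.45% of all genes did), by 0.446 on average (mean deviation -0.446), and 31 of 36 had their lowest value there (86.11%; 26.26% of all genes). By role the mean deviation of that array ran from -0.35 for the 6 sensor genes to -0.61 for Mx1 and Mx2. Its Ly6C+ monocyte markers lay above the group mean for all 7 genes, by 0.22 on average, and its neutrophil markers for 7 of 8, by 0.16. Its macrophage markers lay above it for 6 of 10 and its dendritic cell markers for 3 of 6, both with a mean deviation of 0.15 that rested mostly on Mertk (6.42, against 4.18 to 4.65 on the other metastasis arrays) and Flt3 (7.26, against 4.72 to 6.08), and its 7 plasmacytoid dendritic cell markers lay at -0.01. Their part in the low values was not tested.

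That array was singled out by the low values of the listed genes, so leaving it out raises their differences in monocytes by construction. The median went from 0.06 to 0.22 over the list (-0.01 over all genes without the array), with 28 of 36 above 0. Again 0 listed genes passed in limma, where 0.291% of all genes did, and the smallest adjusted p was that of Oas3 (0.73 ± 0.18, SE; 0.115). At an unadjusted p below 0.05, 8 listed genes were higher. The shares of all genes above 0 and at this unadjusted p were not computed for this fit. Then 8 genes were higher in metastasis without overlap (22.2%; 4.2% of all genes): Oas2, Oas3, Isg15, Dtx3l, Ifih1, Zbp1, Ifi204 and Stat2. With all arrays the count was 0. The array was chosen on the listed genes and not on all genes, so these shares cannot be compared. In the fit without that array the median of the interaction went from 0.11 to 3.1e-05, with 18 of 36 above 0.

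Healthy macrophage replicate 1 stood apart the other way. Of the 36 genes 24 had their highest value of the group there (66.67%; 25.88% of all genes), with a mean deviation of 0.32 from the group mean. Mx1 and Mx2 deviated most, by 0.73 on average, with Mx1 at 5.35, 4.48, 4.61, 4.51 and 4.33 over the 5 healthy arrays and Mx2 at 4.99, 4.26, 4.11, 3.66 and 4.08. All 10 macrophage markers were above their group mean on that array, by 0.40 on average, as were 5 of 6 dendritic cell markers, by 0.41, and neutrophil markers lay at -0.26; their part was not tested. Without it the median difference between metastasis and healthy macrophages was 0.25 (0.0036 over all genes), with 35 of 36 above 0. Ifi44, Oas2 and Oasl2 passed as before, where 0.905% of all genes did. The array was picked by the high values of the listed genes, so leaving it out raises their differences by construction. The share of all genes above 0 was not computed for this fit.

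Metastasis macrophage replicate 3 was the highest of its group for 26 of the 36 (72.22%; 19.86% of all genes), with 33 above the group mean and a mean deviation of 0.25. Its macrophage markers were above the group mean for 9 of 10 genes, by 0.34 on average. This array too was picked by the listed genes, so leaving it out lowers their differences by construction. The median was then 0.11 (-0.00123 over all genes), with 28 of 36 above 0. Ifi44 alone passed, where 0.886% of all genes did. Ifi44 was also the only one to pass without any other single macrophage array, except healthy replicate 1 or metastasis replicate 2. The spread within groups was wider for the listed genes than for all genes, least so in healthy monocytes. Median SDs were 0.29 against 0.20 in healthy macrophages, 0.23 against 0.17 in metastasis macrophages, 0.15 against 0.14 in healthy monocytes and 0.34 against 0.14 in metastasis monocytes. Without the arrays that stood apart, they were 0.22 against 0.18 in healthy macrophages and 0.18 against 0.12 in metastasis monocytes.

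Between the cell types the genes did not move as a block. In healthy marrow 11 of the 36 differed, 2 higher and 9 lower in macrophages, where 28% of all genes passed, 10% higher and 18% lower. The list's share was thus near the background. The median log2 difference was -0.18 over the list and -0.01 over all genes, and 9 of the 36 were above 0 (47.6% of all genes). Of the 6 sensor genes 3 were lower and 1 higher in macrophages, and both Mx genes were lower.

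**Figure D4:**
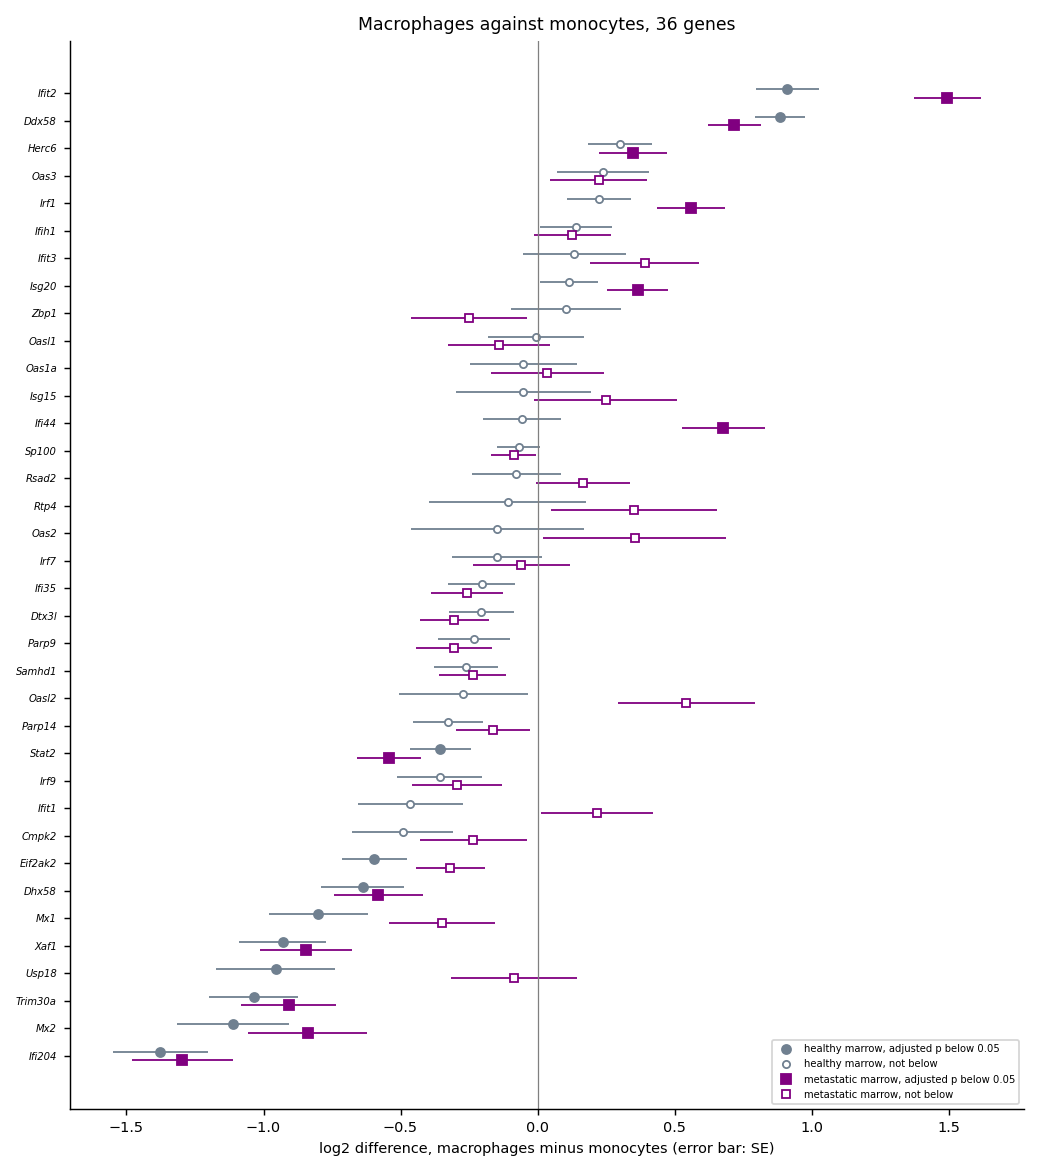
Log2 difference between macrophages and monocytes for each of the 36 genes in healthy (circles) and metastatic marrow (squares), with SE bars; filled symbols have an adjusted p below 0.05. Ifit2 and Ddx58 are higher and Ifi204, Mx2, Trim30a, Xaf1, Dhx58 and Stat2 lower in macrophages in both.

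Ifit2 was the gene most raised in macrophages. Healthy monocytes measured 5.22, 5.22, 5.21, 5.16 and 5.06 and metastasis monocytes 4.70, 4.96, 4.84 and 5.19, below every macrophage array given above. The difference was 0.91 ± 0.12 (SE) in healthy marrow, or 1.88-fold (limma adjusted p = 2e-06), and 1.50 ± 0.12, or 2.82-fold, in metastatic marrow (adjusted p = 3.98e-09). Ddx58, which encodes the 5′-triphosphate RNA sensor RIG-I, measured 6.98, 6.89, 6.98, 7.10 and 7.04 in healthy macrophages and 6.90, 6.97, 7.09, 7.07 and 7.07 in metastasis macrophages. Monocytes measured 5.96, 6.36, 5.97, 6.07 and 6.22 in healthy marrow and 6.30, 6.36, 6.09 and 6.46 in metastasis. Macrophages were thus above monocytes on every array, by 0.88 ± 0.09 (adjusted p = 9.35e-08) in healthy and 0.72 ± 0.10 (4.67e-06) in metastatic marrow.

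Ifi204 differed most in the other direction. Macrophages measured 7.94, 7.23, 7.18, 7.25 and 6.49 in healthy marrow and 7.78, 7.43, 7.63, 7.54 and 7.17 in metastasis, and monocytes measured 8.54, 8.45, 8.63, 8.55 and 8.79 and then 8.91, 8.89, 8.53 and 8.89. No macrophage array reached a monocyte array, and macrophages were 2.60-fold lower in healthy marrow (-1.38 ± 0.17, SE; limma adjusted p = 1.75e-06) and 2.46-fold lower in metastatic marrow (-1.30 ± 0.18; 9.62e-06). The gene belongs to a cluster of related genes, and signal shared between them was not tested. Mx2 measured 5.21, 5.13, 5.43, 5.27 and 5.60 in healthy monocytes and 5.29, 5.72, 4.73 and 5.56 in metastasis, against macrophage levels of 4.00, 4.89, 4.60, 4.56 and 4.38 in metastasis. It was lower in macrophages in healthy marrow (-1.11 ± 0.21; adjusted p = 0.00019) without overlap, and in metastatic marrow (-0.84 ± 0.22; 0.00516) with metastasis monocyte replicate 3 inside the macrophage range.

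Trim30a measured 6.39, 6.35, 6.59, 6.45 and 6.53 in healthy monocytes and 7.13, 6.93, 6.22 and 6.43 in metastasis, above every macrophage array. Its difference was -1.04 ± 0.16 (SE; limma adjusted p = 3.11e-05) in healthy and -0.91 ± 0.17 (0.000304) in metastatic marrow. Usp18 was 1.94-fold lower in healthy macrophages (-0.96 ± 0.22; adjusted p = 0.0016) but not past the test in metastatic marrow (-0.09 ± 0.23), where replicate 3 of the monocytes was the lowest array of all. Mx1 measured 5.42, 5.35, 5.44, 5.59 and 5.49 in healthy monocytes and 5.28, 5.59, 4.54 and 5.26 in metastasis. In macrophages it was lower in healthy marrow (-0.80 ± 0.18; 0.00154) and missed the threshold in metastatic marrow (-0.35 ± 0.19; 0.217). Eif2ak2, with 6.22, 6.31, 6.03, 6.17 and 6.52 in healthy monocytes and 6.42, 6.43, 5.93 and 6.47 in metastasis, gave -0.60 ± 0.12 (0.000428) and -0.32 ± 0.13 (0.0669). The contrast between the kinds of marrow is the interaction, which Usp18, Mx1 and Eif2ak2 did not pass. In metastatic marrow Eif2ak2 passed with the filter on dim genes and with equal array medians. Without metastasis monocyte replicate 3, an array singled out by the listed genes, Eif2ak2 and Mx1 both passed there.

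In metastatic marrow 12 of the 36 genes differed between the cell types, 6 each way, where 26.5% of all genes passed, 9.6% higher and 16.9% lower in macrophages. The median was -0.09 over the list and 0.01 over all genes, and 16 of the 36 were above 0 (50.9% of all genes). Of the genes called, 8 were common to both kinds of marrow, in the same direction, which is 8 of the 11 in healthy and 8 of the 12 in metastatic marrow. Of all genes 28% and 26.5% passed in these comparisons, and the share common to both was not computed. The overlap is therefore not shown to be particular to the list. Xaf1, which antagonises an inhibitor of apoptosis, and Dhx58, a regulator of RIG-I-like sensors, differed by -0.93 and -0.64 in healthy and -0.84 and -0.58 in metastatic marrow. Stat2 measured 7.54, 7.52, 7.40, 7.57 and 7.57 in healthy monocytes and 7.79, 7.70, 7.30 and 7.78 in metastasis, and its difference was -0.35 ± 0.11 and -0.54 ± 0.12 (SE; limma adjusted p = 0.0177 and 0.00103).

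Called in metastatic marrow and not in healthy marrow were Ifi44 (0.68 ± 0.15, SE; limma adjusted p = 0.00142), Irf1 (0.56 ± 0.12; 0.00129), Isg20 (0.37; 0.0169) and Herc6 (0.35; 0.0416). Irf1 measured 6.88, 6.36, 6.87, 6.67 and 6.50 in healthy monocytes and 6.61, 6.32, 6.39 and 6.63 in metastasis, below every metastasis macrophage array. The contrast between the kinds of marrow is the interaction above, which none of the 4 passed. With 1 array left out, Isg20 did not pass in 3 of 9 fits and Herc6 in 6 of 9. Under quantile normalization Irf1 and Herc6 passed in healthy marrow too, and with equal array medians Isg20 and Herc6 did not pass in metastatic marrow. The split between the kinds of marrow thus depended on the processing for these 3 genes. Irf7 did not pass in either kind of marrow, with 7.61, 7.61, 7.68, 7.84 and 7.80 in healthy and 7.82, 8.19, 7.04 and 7.89 in metastasis monocytes (-0.15 and -0.06). Isg15 measured 4.86, 4.48, 4.81, 5.03 and 4.79 and then 5.07, 5.39, 4.18 and 5.44 in monocytes (-0.05 and 0.25), and Irf9 measured 7.38, 7.49, 7.46, 7.54 and 7.78 and then 7.75, 7.38, 7.20 and 7.66 (-0.36 and -0.30), also without passing. The neutrophil, lymphoid and plasma cell markers that set the macrophage arrays apart moved with this comparison, and their part in it was not tested.

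Upstream of these genes, 0 of 19 ligands and 0 of 9 receptor chains and kinases differed between metastatic and healthy marrow in either cell type. With 1.23% and 0.514% of all genes called, lists this short would hold few or no calls in any case, so these counts say nothing particular about them. Ifnb1, which encodes interferon beta, measured 2.36, 2.45, 2.45 and 2.40 as group means, within the range of 2.12 to 2.87 shown by 4 Y-linked genes that these female mice lack. Its messenger was thus not detectable above that level. Ifng had group means of 3.55 and 3.93 in healthy and metastasis macrophages (0.39 ± 0.14, SE; limma adjusted p = 0.206) and 3.42 and 3.53 in monocytes. The receptor genes Ifnar1 and Ifnar2 differed by -0.18 and 0.01 in macrophages and by -0.15 and -0.21 in monocytes. Jak1 gave -0.03 and -0.01, and Tyk2 gave -0.11 and 0.04.

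Over the whole pathway list of 109 genes outside the 36, 4 were higher in metastasis macrophages and 3 in metastasis monocytes, with 0 lower in either. Of all genes 0.638% were called higher and 0.595% lower in macrophages, and 0.395% and 0.119% in monocytes. The chemokine gene Cxcl10, which both types of interferon induce, measured 5.34, 5.39, 5.46, 5.06 and 4.99 in healthy macrophages and 6.97, 5.86, 7.22, 6.58 and 6.68 in metastasis, without overlap (1.42 ± 0.23, SE; limma adjusted p = 0.00197). The immunity-related GTPase gene Iigp1 measured 3.83, 3.84, 3.74, 4.17 and 3.77 against 6.48, 5.07, 6.38, 5.09 and 5.00 (1.73 ± 0.32; 0.00674), with replicates 1 and 3 above the other metastasis arrays. In monocytes their differences were 0.11 and 0.13, and the interaction did not pass for either (adjusted p = 0.213 and 0.294). Tmem173, which encodes the DNA-response adaptor STING, was higher in metastasis macrophages (0.73 ± 0.16; 0.0261), with 7.81, 7.46, 7.24, 7.63 and 6.67 against 7.87, 8.16, 7.88, 8.26 and 8.29.

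Socs3, a feedback inhibitor of cytokine receptors that also answers to interleukin 6, was higher in both cell types. It measured 5.66, 5.70, 5.85, 5.33 and 5.56 against 6.17, 5.86, 6.23, 6.40 and 6.22 in macrophages (0.55 ± 0.14, SE; limma adjusted p = 0.0470) and 5.83, 5.81, 5.29, 5.67 and 5.26 against 6.02, 6.58, 6.13 and 6.20 in monocytes (0.66 ± 0.14; 0.0350). The groups did not overlap in either, and the call was lost in 8 of 10 and 6 of 9 fits that left out an array. Socs1, the inhibitor tied more closely to interferon, did not pass (0.56 ± 0.17; 0.102 in macrophages and -0.04 ± 0.18 in monocytes). Myd88, the Toll-like receptor adaptor, was higher in metastasis monocytes, at 7.92, 7.90, 7.85 and 7.81 against 7.23, 7.48, 7.25, 7.39 and 7.43 (0.52 ± 0.10; 0.0155). Slfn4, a myeloid Schlafen gene, was also higher there, at 6.77, 7.36, 6.89 and 7.07 against 6.09, 6.24, 6.00, 6.25 and 6.44 (0.82 ± 0.16; 0.0111). Neither had overlapping groups, and for both metastasis monocyte replicate 3 lay among the other metastasis arrays. Myd88 lost its call in 4 of 9 fits that left out an array and Slfn4 in 1 of 9. Both also measured mostly higher in metastasis macrophages, with overlapping groups and without passing there. Slfn4 measured 8.65, 9.15, 9.28, 9.28 and 9.33 in healthy macrophages and 9.76, 9.16, 9.74, 9.78 and 9.89 in metastasis. Myd88 measured 7.40, 7.51, 7.49, 7.41 and 7.04 against 7.68, 7.58, 7.51, 7.71 and 7.93. The interaction passed for 0 of the 109 pathway genes.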

How the data were processed

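The deposited values are log2 expression per gene symbol and array, on a scale judged from their range of 1.38 to 12.6. Per the submitters' processing notes the arrays were processed with oligo, whose version and settings, like the genome build, were not given in the sources used here. Values were used as deposited. Replicates were numbered within groups in accession order, and no pairing or batch is given.

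One mean per group was fitted to all 19 arrays with limma 3.58.1 in R 4.3.3 (lmFit, eBayes), with Benjamini-Hochberg adjustment over 20998 genes for each of 5 contrasts. The fit was tested on simulated data, where 57.5%, 96.2% and 100% of genes changed by 0.5, 1 and 2 log2 units were found in the macrophage layout, with 7.91% of calls false. For the interaction 27.5%, 85% and 100% were found, with 6.47% false. The simulation drew noise independently for each gene, with an SD pooled over the groups, and changed genes picked at random. The listed genes had larger SEs (median 0.16 against 0.11 over all genes in macrophages) and shifted together on single arrays. These rates therefore need not hold for the list. Array number limits the precision.

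The pathway lists, markers and alternatives, like the listed genes, were chosen with earlier results of these data known. Values on every array were given for genes called in a metastasis comparison, the 8 with the smallest p in each, the 4 largest called cell-type differences each way, and Isg15, Irf7, Ifit1, Stat2, Irf9 and Irf1. Among pathway genes those called and Ifnar1, Ifnar2, Jak1, Tyk2, Ifnb1, Ifng and Socs1 were named, and 1 further gene of this rule is not reported here. Alternatives were a separate fit for each pair of groups, trended robust variance, array weights, a filter that kept 11005 genes, quantile normalization, equal array medians, and fits with arrays left out. Promoters are from RefSeq (GRCm38.p6), and the array table names no build.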

Additional observations from a re-analysis of the deposited data

Results flagged for a closer look

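In 200 sets of values, each 1 named gene in 1 group, 17 held an array far from the others (8.5%; chance flags about 1 in 20), by its gap to the nearest array relative to the range. Metastasis monocyte replicate 3 accounted for 4 of them, as the lowest for Ifih1 (6.59, next 7.11), Eif2ak2 (5.93, next 6.42), Ifi204 (8.53, next 8.89) and Ifi35 (7.28, next 7.63). Among metastasis macrophages replicate 2 was lowest for Oas2 (5.76, next 7.30), replicate 3 was highest for Oasl2 (6.58, next 6.06) and Ifih1 (7.64, next 7.12), and replicate 5 was lowest for Dhx58 (5.52, next 6.25). Healthy macrophage replicate 1 was highest for Mx1 (5.35, next 4.61), and healthy monocyte replicate 2 was lowest for Parp14 (7.57, next 7.69).

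Of the pathway genes, Slfn4 was lowest on healthy macrophage replicate 1 (8.65, next 9.15) and on metastasis macrophage replicate 2 (9.16, next 9.74). Myd88 was lowest on healthy macrophage replicate 5 (7.04, next 7.40). Socs1 was highest on healthy macrophage replicate 3 (5.88, next 5.31) and Iigp1 on replicate 4 (4.17, next 3.84). Tmem173 was lowest on healthy monocyte replicate 3 (8.65, next 8.91), and Cxcl10 was highest on metastasis monocyte replicate 4 (5.93, next 4.83). The cause was not tested for any of them.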

How the results depend on the processing

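The count of 3 listed genes past the threshold in macrophages was 1 when these groups were fitted alone, 1 with equal array medians, and 1 to 3 when an array was left out. It was 2 with trended robust variance and 2 with quantile normalization, where Oas2 did not pass. With array weights it was 2, and Oasl2 did not pass. Ifi44 passed in each of these fits. The filter on dim genes removed Ifi44 and Rsad2 and left Oas2 and Oasl2 past the threshold. The adjusted p of Oas2 reached 0.131 with these groups fitted alone, and that of Oasl2 reached 0.0739. Fewer samples entered the fits that left out arrays, and for the other settings the cause was not tested. In monocytes and for the interaction the count was 0 in every fit run. Between cell types it was 10 to 16 in healthy marrow with an array left out (main count 11; 16 without healthy macrophage replicate 1), and 11 to 13 in metastatic marrow (main count 12). Of all genes 25.2% to 28% were called in those fits in healthy marrow and 23.4% to 25.9% in metastatic marrow. Leaving out healthy macrophage replicate 1 and metastasis monocyte replicate 3 together, chosen after seeing the data, gave 4 in macrophages (Usp18 added), 17 in healthy and 17 in metastatic marrow. Of all genes 0.986%, 27.8% and 25% were called then. Both arrays were chosen on the values of the listed genes, so these counts cannot be set against those shares. Fitting the groups alone lowered the calls over all genes in macrophages from 259 to 65 and raised those in monocytes from 108 to 210, and array weights gave 134 and 328. With an array left out they were 153 to 546 in macrophages (546 without healthy replicate 5) and 61 to 131 in monocytes, and 726 in macrophages without healthy replicate 5 and metastasis replicate 2 together. For the interaction 4 to 48 genes were called with an array left out (13 with all arrays; 48 without healthy macrophage replicate 5). Quantile normalization took Dhx58 above the threshold in metastatic marrow (adjusted p = 0.0598) and Stat2 in healthy marrow (0.0938). No difference called with the values as deposited and all arrays changed sign. No paired analysis was possible because the labels give no replicate numbers or pairs across groups.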
